A study of Mus musculus with 24 samples.

Results

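miR-190b was measured in mouse soleus by 2 TaqMan assays, mmu-miR-190b with its mouse name and rno-miR-190b with its rat name, out of 584 microRNA assays on 2 real-time PCR cards. The assays were found by name. The mouse assay occupied 2 wells on card B and the rat assay 1 well on card A, so each animal gave 3 wells for this microRNA. The microRNA was chosen by its measured levels in these animals, which had been seen to be low in one transgenic group, MCK-PPARa, against its controls and in the difference between the lines. Its values in that group are therefore given as a description, without a test.

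The soleus, a postural calf muscle rich in slow-twitch fibres, came from 12 male mice aged 12 weeks, 3 in each of 4 groups. MCK-PPARa mice carried a transgene for peroxisome proliferator-activated receptor alpha (PPARα) and MCK-PPARb mice one for PPARβ, each restricted to muscle per the labels. The controls were their non-transgenic littermates, NTGa for the PPARα line and NTGb for the PPARβ line, labelled wild-type. The labels call the replicates biological, and each was taken as 1 animal; p-values measure the spread between these animals. The sources used here do not give the founder line, the transgene level or the strain. Whole muscle was used, so fewer cells holding miR-190b and less miR-190b per cell cannot be told apart.

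A microRNA is cut from a hairpin transcript and guides a protein complex to messenger RNAs, mostly through its seed, bases 2 to 8. PPARα and PPARβ are lipid-sensing transcription factors of the nuclear receptor family, and MCK stands for muscle creatine kinase, whose promoter is active in striated muscle. The mouse gene Mir190b encodes miR-190b and lies on chromosome 3 of GRCm38.p6. It overlapped no other gene of the RefSeq table. Its neighbours were the protein-coding genes 1700094D03Rik and Tpm3, the latter encoding a tropomyosin of slow muscle fibres. Its paralogue Mir190a, on chromosome 9, overlapped Tln2, which encodes a cytoskeletal talin.

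The mature sequences of both paralogues are shown because their shared seed makes them 1 family and their 3′ ends tell them apart. They are taken from RefSeq on GRCm38.p6, with the seed in capitals.
mmu-miR-190b-5p, chr3:90070030-90070051, plus strand: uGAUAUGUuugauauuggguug
mmu-miR-190a-5p, chr9:67236700-67236721, minus strand: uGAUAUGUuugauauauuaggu
The first 15 bases were identical, and the remaining 7 positions all differed. Counted from 1 at the 5′ end with miR-190b first, the differences were U16A, G17U, G18U, G19A, U20G, U21G and G22U. Of 1679 mature mouse names in the RefSeq table, these 2 were the ones with this seed. The Mir190b hairpin, chr3:90070020-90070099 on the plus strand, shows where in the precursor the mature strand lies, given in capitals.
Mir190b hairpin: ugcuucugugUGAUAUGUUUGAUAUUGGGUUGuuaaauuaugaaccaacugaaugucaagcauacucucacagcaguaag
The assay names give no arm, and the strand that first carried the name miR-190b is the 5p strand. A rat sequence was not used here, so the bases by which the rat assay may differ from the mouse assay are not stated.

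Both assays gave a cycle threshold (Ct) under 35, the limit taken as detected, in all 12 animals, as did 208 of the 584 assays. The Ct is the PCR cycle where the signal rises past a set line, and it falls as template increases. Levels below are on the log2 scale: the reference Ct, which averages a card's microRNAs with a Ct under 35 in every animal, minus the Ct of the assay. An assay entered the fit if some group had it detected in each of its 3 animals, as held for 268. The reference Ct lay between 27.6 and 28.4 on card A and between 28.2 and 29.3 on card B. Between 248 and 296 assays were detected per animal, and the median correlation with the other animals was lowest for MCK-PPARa replicate 1, at 0.933 against 0.960 to 0.974. The 5 microRNAs of muscle fibres in general (miR-1, miR-133a, miR-133b, miR-206 and miR-486) summed to a log2 level between 11.2 and 12.2 in every animal.

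By the mouse assay, miR-190b was low in MCK-PPARa and stood close together in the other groups. Its level was 0.98, 1.11 and 0.86 in NTGa replicates 1 to 3, and -0.67, -1.34 and -1.78 in MCK-PPARa replicates 1 to 3. It was 1.42, 0.76 and 1.12 in NTGb and 1.22, 1.26 and 0.72 in MCK-PPARb. All 3 MCK-PPARa animals lay below the 9 others, whereas the other 3 groups overlapped each other. The group means were 1.10 ± 0.333 (SD, n = 3) in NTGb, 1.07 ± 0.302 in MCK-PPARb, 0.99 ± 0.124 in NTGa and -1.27 ± 0.558 in MCK-PPARa. In this order the first 3 neighbours differed by less than the spread between replicates. The gap lay before MCK-PPARa, whose mean Ct was 29.8 ± 0.865 against 27.7 ± 0.0685 in NTGa.

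By the rat assay, the level was -2.34, -1.73 and -1.59 in NTGa and -3.93, -3.50 and -4.84 in MCK-PPARa. It was -2.75, -2.93 and -2.57 in NTGb, and -4.44, -2.09 and -2.07 in MCK-PPARb. Here too each MCK-PPARa animal lay below every NTGa and NTGb animal, but MCK-PPARb replicate 1, at -4.44, lay among them. The group means were -1.89 ± 0.396 (SD, n = 3) in NTGa, -2.75 ± 0.182 in NTGb, -2.87 ± 1.36 in MCK-PPARb and -4.09 ± 0.682 in MCK-PPARa. NTGb and MCK-PPARb differed by less than their spread. The mean Ct was 29.7 ± 0.382 in NTGa and 32.1 ± 0.637 in MCK-PPARa.

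**Figure D1:**
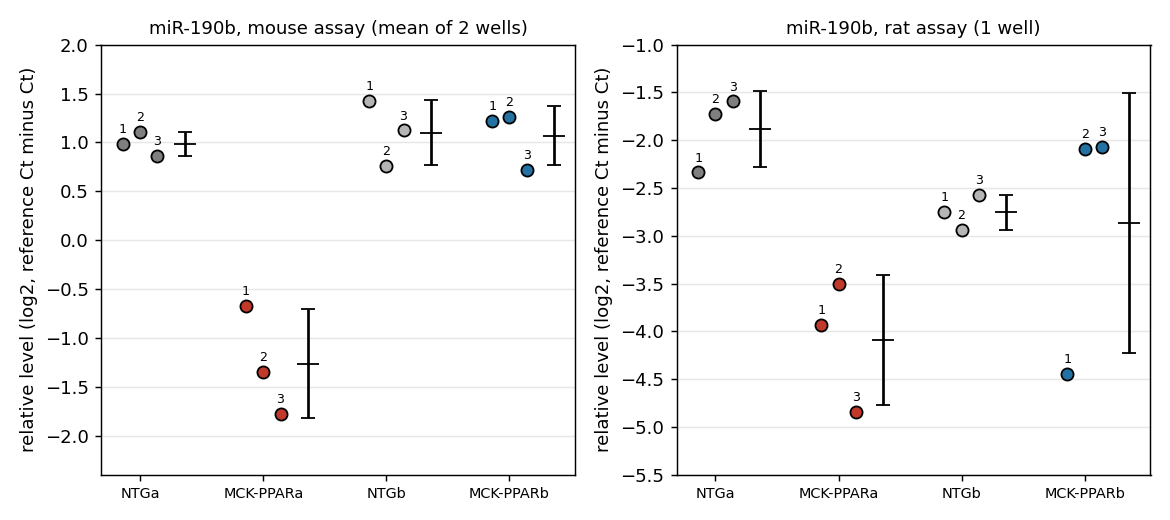
Relative level of miR-190b (log2, reference Ct minus Ct) by the mouse assay and the rat assay in each of 12 animals, numbered by replicate. Bars give the group mean ± SD of 3 animals; MCK-PPARa lies between -1.78 and -0.67 in the mouse assay, and MCK-PPARb replicate 1 stands at -4.44 in the rat assay.

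Set against NTGa, the mean level in MCK-PPARa was 4.76-fold lower by the mouse assay (log2 -2.25, SE 0.30) and 4.61-fold lower by the rat assay (log2 -2.21, SE 0.58). Among the 268 assays these ranked 4 and 5 from the lowest difference of that contrast. The groups did not overlap, MCK-PPARa lower, for 2 of 2 miR-190b assays, where 10.8% of all tested assays showed this; the contrast is the one that chose the microRNA, so nothing is read from this count. The median difference over all 268 assays was 0.12. Against the controls of the other line, NTGb, the level in MCK-PPARa was 5.15-fold lower by the mouse assay and 2.53-fold lower by the rat assay. Against MCK-PPARb it was 5.05-fold and 2.34-fold lower. The difference of the effects (MCK-PPARa minus NTGa, less MCK-PPARb minus NTGb) was -2.22 (SE 0.43) by the mouse assay and -2.09 (SE 0.83) by the rat assay, also without a test. Without MCK-PPARb replicate 1 the rat value was -2.89.

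The wells behind the mouse assay were examined next, since each animal had a pair of them. In the 9 animals outside MCK-PPARa the wells differed by 0.0554 to 0.349 Ct, with a median of 0.162. In MCK-PPARa the first and second wells read Ct 28.4 and 29.3 in replicate 1, 30.7 and 29.7 in replicate 2, and 30.2 and 30.7 in replicate 3. These gaps were 0.930, 1.06 and 0.441 Ct, so that every MCK-PPARa animal had a wider gap than each of the 9 others. The other paired wells of card B had a median gap of 0.156 Ct (64 well pairs) at a Ct from 27 to 29 and 0.287 Ct (142 well pairs) from 29 to 31. At the lower of these ranges, which holds the mean Ct of MCK-PPARa replicate 1, 0% of the pairs lay over 0.9 Ct apart. At the higher, which holds replicates 2 and 3, 4.93% did. The 90th percentile there was 0.754 Ct, below the gap of replicate 2 (1.06) and above that of replicate 3 (0.441). Taken singly and unscaled, the mean Ct of NTGa minus that of MCK-PPARa was -1.93 for the first well and -2.32 for the second. Each well of MCK-PPARa had a higher Ct than any well of the other animals, although the lowest, 28.4 in MCK-PPARa replicate 1, was close to the highest of the others, 28.3 in MCK-PPARb replicate 3.

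**Figure D2:**
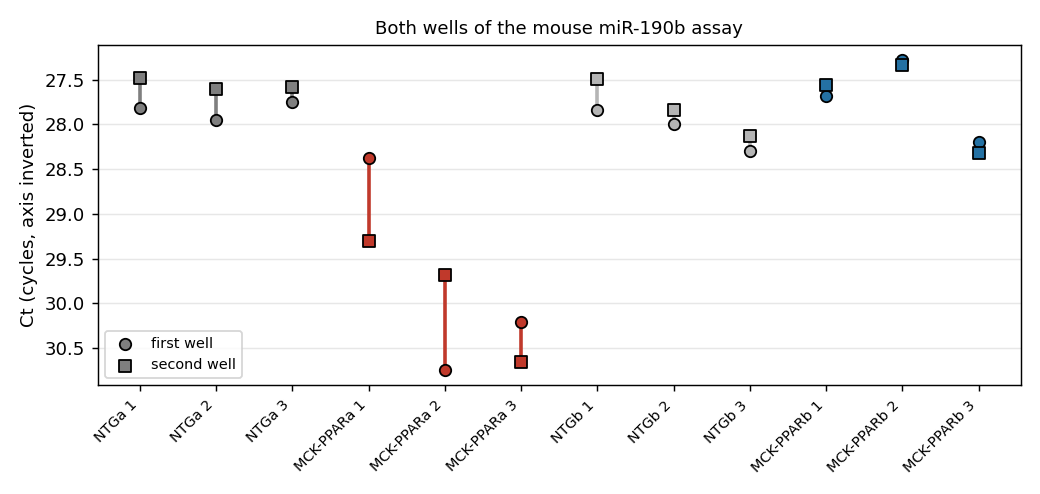
Ct of the first well (circle) and the second well (square) of the mouse miR-190b assay in each animal, on an inverted axis in cycles. The wells of MCK-PPARa lie 0.441 to 1.06 Ct apart, those of the other 9 animals 0.0554 to 0.349.

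In the PPARβ line, miR-190b did not differ between transgenic and control animals beyond the spread of either assay. The mouse assay gave a log2 difference of -0.03 (95% interval -0.70 to 0.64, limma adjusted p = 0.961) and the rat assay -0.12 (95% interval -1.41 to 1.17, limma adjusted p = 0.951). limma called 0 of 2 miR-190b assays, and 0% of the 268 assays passed an adjusted p under 0.05 in this contrast. At an unadjusted p under 0.05 there were 23 assays (8.58%) and neither miR-190b assay. The groups overlapped for both assays, where 15.3% of all assays did not overlap. The rat value rested on MCK-PPARb replicate 1: without that animal it was 0.68, the opposite direction (adjusted p 0.789 to 0.997 over the left-out animals).

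The control groups were compared to see how far the lines themselves stood apart. NTGa, which also entered the contrast that chose the microRNA, differed from NTGb by -0.12 by the mouse assay (95% interval -0.79 to 0.56, limma adjusted p = 0.869). By the rat assay it stood 0.87 higher (95% interval -0.43 to 2.16, limma adjusted p = 0.522). With U6 snRNA as reference these values were 0.46, the opposite direction, and 1.42 (limma adjusted p = 0.43 and 0.153). Neither passed, and 1.87% of all assays did. The NTGa and NTGb animals did not overlap in the rat assay, NTGa higher, as for 9.7% of all assays in that direction; in the mouse assay they overlapped.

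Compared animal by animal, the mouse assay read higher than the rat assay in 12 of 12 animals. The levels are relative to the reference of each card, and the efficiency of the assays is not given in the sources used here, so this gap is not a difference in amount. The mouse level minus the rat level was 3.32, 2.84 and 2.46 in NTGa and 3.26, 2.16 and 3.06 in MCK-PPARa. It was 4.17, 3.69 and 3.69 in NTGb, and 5.66, 3.36 and 2.79 in MCK-PPARb. The gap thus overlapped between NTGa and MCK-PPARa, was wider in each NTGb animal than in either of those groups, and was widest in MCK-PPARb replicate 1. Over 12 animals its mean was 3.37 with an SD of 0.911, close to the SD of the mouse levels (1.09) and of the rat levels (1.06) themselves.

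In the PPARβ line the gap between the assays differed by 0.09 (SE 0.89) between MCK-PPARb and NTGb (exact two-sided permutation test, p = 1, n = 3 against 3), where such a test cannot go below p = 0.1. This value rested on single animals. It was -0.79 without MCK-PPARb replicate 1 (exact p = 0.1, the lowest p that this smaller test can give). Without MCK-PPARb replicate 3 it was 0.66. The gaps in MCK-PPARa use the levels that chose the microRNA and are given without a test. Their mean was 0.04 below that of NTGa (difference -0.04, SE 0.42) and stood -0.73 (SE 0.46) from that of the other 9 animals. At a detection limit of Ct 32, where rat values above that limit are set to the floor, the latter difference was -1.19.

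Within the 9 animals outside MCK-PPARa, where no group stood apart in the mouse assay, no relation between the assays was detected. Pearson's r was -0.301 (exact permutation p = 0.456, n = 9) and Spearman's rho -0.350 (exact permutation p = 0.359, n = 9); this was 1 relation. Without NTGb replicate 2 and MCK-PPARb replicate 3, the animals farthest from the median of the mouse assay, r was -0.451 (exact permutation p = 0.32, n = 7). The sign of r turned with U6 snRNA (0.264), the endogenous small RNA controls (0.389), no scaling (0.0127) or quantile normalization (0.0767). Over all 12 animals, where MCK-PPARa forms a cluster of its own, r was 0.643, given as a description. For deviations from the group means it was 0.0523. Around the group means, the residual SD was 0.36 for the mouse assay and 0.79 for the rat assay, at percentiles 46.6 and 86.5 of the 208 assays detected in all animals.

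**Figure D3:**
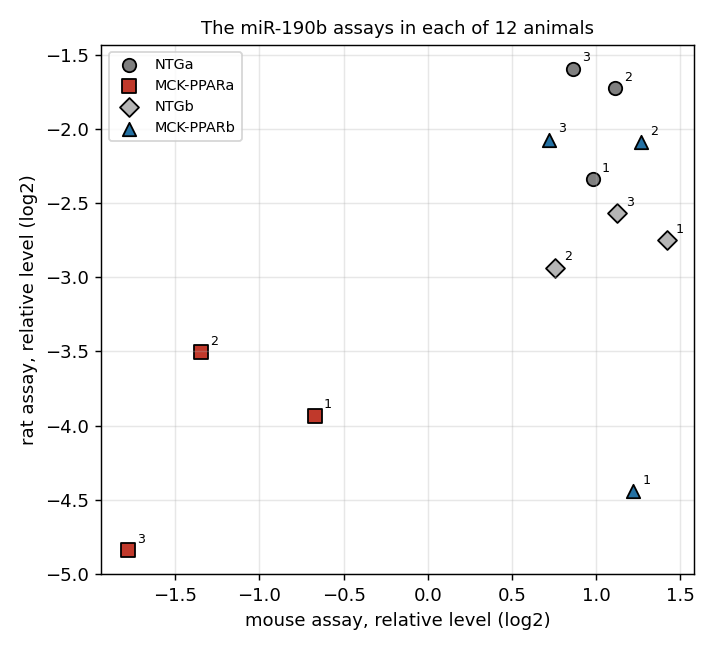
Level of miR-190b by the rat assay against that by the mouse assay (both log2) in each of 12 animals, numbered by replicate within its group. The 3 MCK-PPARa animals lie to the left, between -1.78 and -0.67 on the mouse axis, and among the 9 others the assays show no common order.

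Other microRNAs carried by both a mouse and a rat assay put these values in context. There were 31 such names. For 7 of them only 1 of the assays was detected in all 12 animals, so those names are not in the ranges below. For 6 of the 31 both assays were detected in all 12 animals. Besides miR-190b these were miR-1, miR-125b*, miR-339-3p, miR-489 and miR-7a*. In the other 5, r over the 12 animals ran from 0.035 to 0.673 and the SD of the gap from 0.307 to 1.39. For miR-190b these were 0.643 and 0.911. Its r draws on the MCK-PPARa levels that chose it and was -0.301 over the 9 other animals. Nothing is therefore read from its place in the range of r. In 4 of the other 5 both assays were on the same card, unlike miR-190b. The assays of a name differed in their MCK-PPARa minus NTGa difference by 0.07 to 1.36 in those 5. In miR-190b, which unlike them was chosen by its level in this contrast, they differed by 0.04, from which nothing is read. The nearest in Ct was miR-489, with 1 assay on each card like miR-190b, at differences of -0.00115 and 0.07 and an r of 0.180.

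The paralogue miR-190, the older name of miR-190a, did not share the low level of MCK-PPARa. Its level was -4.85, -3.35 and -2.69 in NTGa and -4.00, -3.45 and -3.37 in MCK-PPARa, which overlapped, with a log2 difference of 0.02 (SE 0.56, limma adjusted p = 0.987). It was -3.49, -4.71 and -5.39 in NTGb against -3.39, -3.25 and -3.08 in MCK-PPARb. These groups did not overlap, as for 15.3% of all assays in either direction. The difference of 1.29 (SE 0.56) did not pass over all assays (limma adjusted p = 0.532). Its mean Ct per group ran from 31.3 to 32.7, beside 29.7 to 32.1 for the rat miR-190b assay.

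The slow myosin list held miR-499 and miR-208b, made from introns of the slow-type myosin genes Myh7b and Myh7, and miR-208 of Myh6, a cardiac myosin gene, which was not tested. It was chosen with earlier results of these data known. Of its 2 tested members 1 fell in MCK-PPARa and none changed in MCK-PPARb (limma, 1.12% of all assays called lower in MCK-PPARa and 0% in MCK-PPARb). miR-499 was at -0.17, -0.35 and -0.17 in NTGa and at -3.99, -4.26 and -3.42 in MCK-PPARa. It stood at 0.93, -0.17 and 0.61 in NTGb and between 0.37 and 0.38 in the 3 MCK-PPARb animals. Its difference in MCK-PPARa was thus -3.66 (SE 0.30), beside -2.25 for miR-190b by the mouse assay. miR-208b was at the floor, the level given to undetected values, in all 3 MCK-PPARa animals, at least 2.48-fold below NTGa (limma adjusted p = 0.334). In MCK-PPARb it was at -1.64, -2.72 and -2.96 against -3.90, -4.69 and -2.69 in NTGb, a difference of 1.32 (limma adjusted p = 0.532). The corresponding difference for miR-190b was -0.03 by the mouse assay. The median of the 2 tested members was -2.48 in MCK-PPARa and 0.62 in MCK-PPARb, beside 0.12 and 0.02 over all assays.

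**Figure D4:**
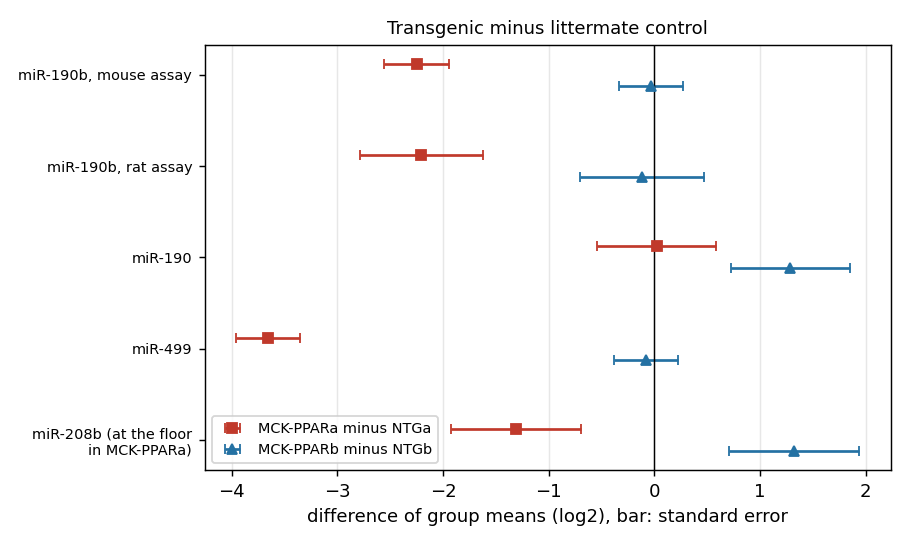
Difference of group means (log2) between transgenic animals and their littermate controls for the miR-190b assays, miR-190, miR-499 and miR-208b, with the standard error as bar. In MCK-PPARa (red squares) the miR-190b assays lie at -2.25 and -2.21 and miR-499 at -3.66; in MCK-PPARb (blue triangles) the miR-190b assays lie at -0.03 and -0.12.

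The general muscle microRNAs showed no call in either line: of 5 members 0 passed in MCK-PPARa and 0 in MCK-PPARb by limma, where 2.24% and 0% of all assays did. In MCK-PPARa their differences ran from -0.11 for miR-1 to 0.68 for miR-486, with a median of 0.13. The markers of other cell types had 0 of 18 tested members called in either line. The endothelial list, miR-126-3p and miR-126-5p, was detected throughout and summed to a log2 level of 8.95 to 9.15 in NTGa and 8.86 to 9.18 in MCK-PPARa. Most of that sum is miR-126-3p, and the members stood on opposite sides of 0 in MCK-PPARa, miR-126-3p at 0.27 and miR-126-5p at -0.85 (limma adjusted p = 0.737 and 0.443). The leukocyte list (5 of 6 tested) summed to 5.01 to 5.33 and 5.04 to 5.40 in the same groups. The smooth muscle and fibroblast list (5 of 5 tested) summed to 5.34 to 5.38 and 5.32 to 5.59. The summed ranges of these 3 lists overlapped between NTGa and MCK-PPARa.

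The microRNAs whose levels followed the mouse miR-190b assay most closely were ranked by Pearson's r over the 12 animals among the 207 other assays detected in all of them. miR-499 came first at 0.944. It was followed by miR-93* (0.752), miR-22* (0.700), miR-181c (0.681) and rno-miR-125b* (0.668), the asterisk marking the less abundant strand of a hairpin. The rat miR-190b assay ranked ninth at 0.643. The lowest r belonged to miR-192 (-0.832), miR-486 (-0.761) and miR-34a (-0.747). These are descriptions over animals that share a group structure, and most of them rest on MCK-PPARa. Over the 9 other animals r was 0.584 for miR-499, 0.348 for miR-93*, 0.758 for miR-22*, -0.342 for miR-181c and -0.397 for rno-miR-125b*. It was -0.160 for miR-192, 0.226 for miR-486 and -0.175 for miR-34a.

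Among these, miR-22* stayed close to the mouse assay without MCK-PPARa. Its group means were -0.52 in NTGa, -0.70 in MCK-PPARa, -0.21 in NTGb and -0.10 in MCK-PPARb, and it was called in neither line (limma adjusted p = 0.791 and 0.882). miR-192, abundant in gut, liver and kidney epithelium, ran opposite to miR-190b between NTGa and MCK-PPARa, at -0.78 and 0.24. It was called in that contrast (limma adjusted p = 0.0425), as were 2.24% of all assays in either direction. It was named for its low r with the mouse assay, which draws on MCK-PPARa, so this p-value is not independent of that choice. Over the animals outside MCK-PPARa its r was -0.160 with the mouse assay and 0.559 with the rat assay. In the PPARβ line miR-192 stood at -1.46 in NTGb and -0.86 in MCK-PPARb.

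The rat assay kept mostly other company, named here after its values were seen. Its closest match over the 12 animals was rno-miR-1 (r = 0.910), a rat-named assay of a microRNA that is abundant in striated muscle, then miR-20b (0.878), miR-19a (0.869) and miR-126-5p (0.869). Over the 9 animals outside MCK-PPARa these stood at 0.876, 0.860, 0.934 and 0.923, so this likeness did not rest on MCK-PPARa. Like the rat miR-190b assay, all 4 had a lower group mean in MCK-PPARa than in NTGa. The means were 8.10 against 8.69 for rno-miR-1 and -2.74 against -0.84 for miR-20b. For miR-19a they were 1.78 against 3.09, and for miR-126-5p 6.87 against 7.73. With the mouse miR-190b assay the same 4 had an r of -0.116, -0.390, -0.433 and -0.231 over those 9 animals. All 4 were lowest of all animals in MCK-PPARb replicate 1, as miR-19a was at 0.25 there and at 2.64 and 2.91 in the other MCK-PPARb animals. For rno-miR-1 this was nearly a tie, at 7.861 there and 7.863 in MCK-PPARa replicate 3. Partner assays of the same microRNA or hairpin followed the rat miR-190b assay less closely. Over 12 animals miR-1 by its mouse assay had an r of 0.265 with it, and miR-126-3p -0.174. Over the 9 animals outside MCK-PPARa these stood at 0.402 and 0.153. A rat-named assay of miR-20b, rno-miR-20b-5p on card B, had an r of 0.218 over 12 animals but 0.702 over those 9. In MCK-PPARa and NTGa the group means were 7.10 and 7.21 for miR-1 by its mouse assay, and 8.62 and 8.35 for miR-126-3p. The 20 assays most like the rat assay and the 20 most like the mouse assay had 5 in common. Among these were miR-181c (r = 0.828 with the rat assay) and miR-499 (0.586). Of the 20 assays most like the rat assay, 19 were on card A, its own card, beside 15 of the 20 most like the mouse assay and 71.6% of all 208. The part of these assays' common variation in the rat miR-190b values was not tested.

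**Figure D5:**
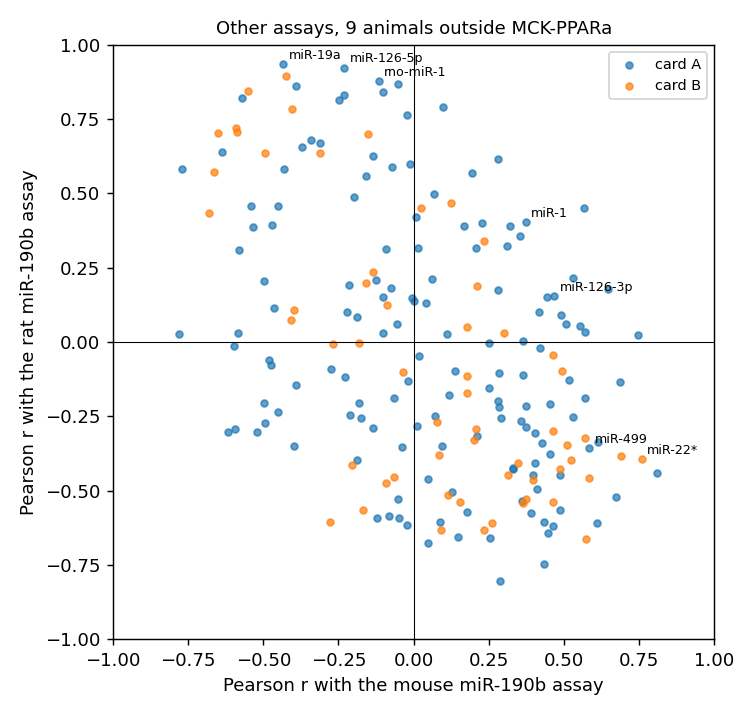
Each point is another assay detected in all 12 animals, placed by its Pearson r with the mouse miR-190b assay (horizontal) and with the rat miR-190b assay (vertical) over the 9 animals outside MCK-PPARa, coloured by card. miR-19a, miR-126-5p and rno-miR-1 lie at the top (0.934, 0.923 and 0.876 with the rat assay) and left of 0 on the mouse axis, while miR-22* (0.758) and miR-499 (0.584) lie to the right.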

How the data were processed

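RNA was isolated with RNAzol B and amplified over 40 cycles with FAM-labelled TaqMan assays, per the labels' protocols. The authors deposited 1 Ct per well, not normalized per the file headers, with empty cells where no Ct was called. The sources used here do not give the software, threshold or baseline. Every value column was matched to a sample by name (0 unmatched), and both cards of an animal were joined, so 24 samples gave 12 animals.

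An assay's wells on a card were averaged; where only one was empty, it was set to Ct 40. Values were scaled to log2 per card (149 reference microRNAs on card A, 59 on card B), and undetected values were set to 1 floor per card (-6.56 and -5.66). A fold assumes doubling in each cycle. Groups were fitted with limma 3.58.1 in R 4.3.3 over 12 animals (8 residual degrees of freedom), two-sided, adjusted by Benjamini-Hochberg over 268 assays. The fit was tested on simulated data. Correlation p-values came from all orderings of the animals, in place of the planned resamples, and the planned tests of the assay gap in MCK-PPARa are not given, since they use the levels that chose the microRNA. Ct precision falls with Ct, as the well gaps show. The miR-190b assays, the lists and the tests were chosen with earlier results of these data known. Named microRNAs follow a fixed rule: the miR-190b assays, miR-190, miR-208b, miR-499, the 5 highest and 3 lowest in r with the mouse assay, the mouse and rat pair nearest in Ct, and up to 2 members per list; those named outside it are said to be.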

Additional observations from a re-analysis of the deposited data

Results flagged for a closer look

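miR-499, the microRNA most like the mouse miR-190b assay over 12 animals, differed between the lines. Its MCK-PPARa effect less its MCK-PPARb effect was -3.58 on the log2 scale (limma adjusted p = 0.00141), where 3 of 268 assays passed. For miR-499, 3 of 3 MCK-PPARa animals lay below every NTGa animal, as for 10.8% of all assays. Its likeness to miR-190b rests largely on MCK-PPARa, with an r of 0.584 over the 9 other animals. The low level in MCK-PPARa also chose miR-190b, so this p-value is not independent of that choice. The difference of the effects for miR-190b is given in the report as a description.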

How the results depend on the processing

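Under the 17 alternatives the MCK-PPARa minus NTGa difference of miR-190b kept its direction and moved by less than its residual SD. It ran from -2.44 to -1.99 by the mouse assay and from -2.39 to -1.68 by the rat assay. Some alternatives left it and the difference of the effects unchanged, and so are no check on them. For both assays these were undetected values missing, microRNAs detected in every animal and the replicate block. For the rat assay they were also the lowest Ct of the wells, empty wells left out and each well of the mouse assay. Leaving out 1 animal gave -2.57 to -1.99 and -2.50 to -1.84. The difference of the effects ran from -2.41 to -1.91 and from -2.59 to -1.76, and from -2.53 to -1.96 and -2.89 to -1.70 with 1 animal left out. Small differences changed sign and passed under none of these alternatives. For MCK-PPARb minus NTGb by the mouse assay these were the median reference (0.038), U6 (0.36), no scaling (0.20), 1 reference over both cards (0.10) and the first well (0.087), with -0.20 to 0.14 over left-out animals. By the rat assay they were U6 (0.20), Ct 32 (0.13) and animal weights (0.18), with -0.52 to 0.68. NTGa minus NTGb by the mouse assay turned with U6 (0.46), endogenous controls (0.24) and no scaling (0.23), with -0.29 to 0.0475; by the rat assay it ran from 0.575 (median reference) to 1.42 (U6), and from 0.77 to 1.09 over left-out animals. The gap between the assays in MCK-PPARa against NTGa turned with U6 (0.34), endogenous controls (0.10), no scaling and 1 reference over both cards (0.26 each), no detection limit (0.0027), the lowest Ct of the wells (0.21) and the first well (0.15), with -0.28 to 0.29. In MCK-PPARb it turned with endogenous controls (-0.031), Ct 32 (-0.17), no detection limit (-0.039) and the second well (-0.032), with -0.79 to 0.66. In MCK-PPARa against the other 9 it was -1.19 at Ct 32 and ran from -0.95 to -0.39 over left-out animals. The correlation of the assays turned with U6 (0.264), endogenous controls (0.389), no scaling (0.0127) and quantile normalization (0.0767), with -0.447 to -0.138. The cause of these changes was not tested.

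Of all assays, 0 were called in MCK-PPARb against NTGb, 1 with animal weights and 0 to 1 over left-out animals. The 5 called between NTGa and NTGb became 29 with U6, 14 with animal weights, 2 with quantile normalization, 1 with no detection limit, and 0 at Ct 32, with undetected values missing or with microRNAs detected in all 12 animals; they were 0 to 3 over left-out animals. The wells of the mouse assay taken singly and the reference without the miR-190b assays were chosen after seeing the data. The labels do not say that replicate numbers pair animals. With the replicate block, miR-190b stood at -0.03 (mouse) and -0.12 (rat) in MCK-PPARb, and 6 assays were called between NTGa and NTGb.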
